A study of Mus musculus with 8 samples.

Results

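The Zscan4 family comprised 9 genes, Zscan4a to Zscan4f and the copies Zscan4-ps1, Zscan4-ps2 and Zscan4-ps3, taken as every gene with counts whose symbol begins with Zscan4, out of 52550 genes listed. The family was chosen by its fold changes between Dax1KO and control cells in 2i/LIF, where members were already known to be among the largest decreases. The values of the members in that comparison, and in every comparison that contains the 2i/LIF libraries, are therefore given as a description without a test. Genes outside the family were tested in both media. The comparison of Dax1KO with control cells in LIF/serum was tested. The samples were control ESCs, which carry no Dax1 deletion, and Dax1KO ESCs, in which CRISPR/Cas9 had disrupted Dax1 (Nr0b1), an orphan nuclear receptor. Both were mouse ESCs labelled passage 3. Both were grown on gelatin in 2i/LIF, N2B27 medium with 1 μM of the MEK inhibitor PD0325901, 3 μM of the GSK3 inhibitor CHIR99021 and 10 ng/ml LIF, or in LIF/serum, with 15% FBS and 10 ng/ml LIF. Each of the 4 groups had 2 mRNA libraries. Dax1KO lines were obtained in 2i/LIF, the study's functional experiments used 1 clone, and the study describes differentiation and death of these cells after transfer to LIF/serum. Nothing states that the 2 libraries of a group came from separate cultures, so P values measure the spread between these libraries, which may be technical.

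Zscan4 proteins carry a SCAN domain and zinc fingers. The genes are transcribed in a burst in the embryo at the 2-cell stage. In ESC cultures they are switched on briefly in a small fraction of cells, where they are known for telomere elongation by recombination and for genome stability. The cells that express them belong to the 2-cell-like state, in which the transcription factor Dux and endogenous retroviral promoters are active, and Dax1 has been described as a negative regulator of Zscan4c. In a bulk library, fewer Zscan4-positive cells and less Zscan4 RNA in each positive cell cannot be told apart.

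The members lie in a single cluster on chromosome 7, from base 10794242 to 11614112 of GRCm38, a span of 819.871 kb, with 4 genes on the plus strand and 5 on the minus strand. No annotated gene overlapped a member. GENCODE M21 calls Zscan4a an unprocessed pseudogene and the other 8 protein coding, whereas RefSeq calls Zscan4b, Zscan4c, Zscan4d and Zscan4f protein coding and the remaining members pseudogenes. All 9 have 4 exons in their longest transcript. The transcripts were 96.6% to 99.8% identical over the 36 pairs of members, with a median of 97.4%. Of the 100-base windows of a transcript, the share found in no other gene was 10.5% for Zscan4f, 15.9% for Zscan4e, 21.3% for Zscan4b, 25.4% for Zscan4-ps2 and 27.2% for Zscan4c. It was 47.8% for Zscan4-ps3, 60.9% for Zscan4a, 70.4% for Zscan4d and 76.6% for Zscan4-ps1. How the authors' counting treated reads that match several members is not given in the sources used here, so values of single members are uncertain and the sum over the family is given beside them.

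RefSeq held promoter sequences for Zscan4b, Zscan4c, Zscan4d and Zscan4f. They are shown because the 4 windows are nearly the same sequence, 94.7% to 99.6% identical over the 6 pairs. The windows lie on GRCm38.p6 at chr7:10905051-10905300 (minus strand) for Zscan4b, chr7:11005495-11005744 (plus strand) for Zscan4c, chr7:11166160-11166398 (minus strand) for Zscan4d and chr7:11397665-11397914 (plus strand) for Zscan4f. Each is written 5′ to 3′ toward the start site, and that of Zscan4d lacks the last 11 bases before it, which GENCODE lists as transcript. Capitals mark TATAAA, the TATA box letters, and TGACCTTG, which is CAAGGTCA on the opposite strand, the extended half-site letters of orphan nuclear receptors.
Zscan4b: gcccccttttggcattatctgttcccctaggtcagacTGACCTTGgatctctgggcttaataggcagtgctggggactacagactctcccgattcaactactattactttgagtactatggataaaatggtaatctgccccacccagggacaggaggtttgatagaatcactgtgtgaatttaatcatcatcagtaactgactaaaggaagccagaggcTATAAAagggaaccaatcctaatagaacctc
Zscan4c: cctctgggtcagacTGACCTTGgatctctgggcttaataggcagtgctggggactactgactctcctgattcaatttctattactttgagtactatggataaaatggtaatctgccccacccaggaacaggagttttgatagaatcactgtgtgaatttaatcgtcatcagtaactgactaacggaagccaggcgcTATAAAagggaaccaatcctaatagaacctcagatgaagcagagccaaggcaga
Zscan4d: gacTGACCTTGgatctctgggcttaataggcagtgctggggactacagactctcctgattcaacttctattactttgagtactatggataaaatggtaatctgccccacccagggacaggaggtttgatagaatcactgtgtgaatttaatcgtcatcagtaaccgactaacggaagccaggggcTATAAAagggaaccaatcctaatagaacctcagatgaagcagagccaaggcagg
Zscan4f: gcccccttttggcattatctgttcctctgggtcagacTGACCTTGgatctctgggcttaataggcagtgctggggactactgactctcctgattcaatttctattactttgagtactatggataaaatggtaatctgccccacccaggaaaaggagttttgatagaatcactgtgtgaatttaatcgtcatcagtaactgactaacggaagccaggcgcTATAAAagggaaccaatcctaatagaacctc
In Zscan4b and Zscan4f, TATAAA began 31 bases before the start site and CAAGGTCA covered bases 213 to 206 before it. In Zscan4c and Zscan4d the same letters stood farther from the annotated start, with TATAAA beginning at 54 and 65 bases, the latter counting the 11 bases not printed. Searched on both strands, TATAAA occurred in 12.4% of the 32851 RefSeq promoters and CAAGGTCA in 1.33% of them. GATTNAATC, letters tried for Dux, occurred in 0.247% of all promoters and in none of the 4 windows. Zscan4c and Zscan4f differed at 1 of 227 aligned bases and Zscan4b and Zscan4f at 13 of 250. A match of letters is a description and not evidence of binding.

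Library totals lay between 35911384 and 37286251 counts. All 9 members passed the filter on low counts, which kept 20749 genes. Low counts piled up at 3 and 6, so a small count need not be that many independent fragments, and intervals below cover counting error only. Dax1 was checked first. Its counts were 5095 and 4689 in control libraries and 14 and 6 in Dax1KO libraries in LIF/serum, and 456 and 300 against 0 and 0 in 2i/LIF. The libraries followed their labels. All 5 ESC markers (Pou5f1, Sox2, Nanog, Zfp42 and Esrrb) were present in every library.

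The summed Zscan4 count was highest in LIF/serum and nearly gone in Dax1KO cells in 2i/LIF. In LIF/serum the 9 genes together had 22488 and 29140 counts in control cells, against 23420 and 22208 in Dax1KO cells. In 2i/LIF they had 631 and 977 in control cells, against 41 and 34 in Dax1KO cells. Between the media, and between the genotypes in 2i/LIF, the libraries were far apart, with no overlap. On the scale of normalized counts, which are counts divided by the TMM-scaled library size and brought to the mean size, the sums were 27461 ± 5118 for control and 22029 ± 531 for Dax1KO in LIF/serum, and 805 ± 244 and 36.6 ± 4.70 in 2i/LIF (SD, n = 2 each). The order of the groups was therefore control and then Dax1KO in LIF/serum, control in 2i/LIF, and Dax1KO in 2i/LIF. The first and second neighbours in that order differed by about the SD of the control libraries, and every other step was larger than the spread.

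**Figure D1:**
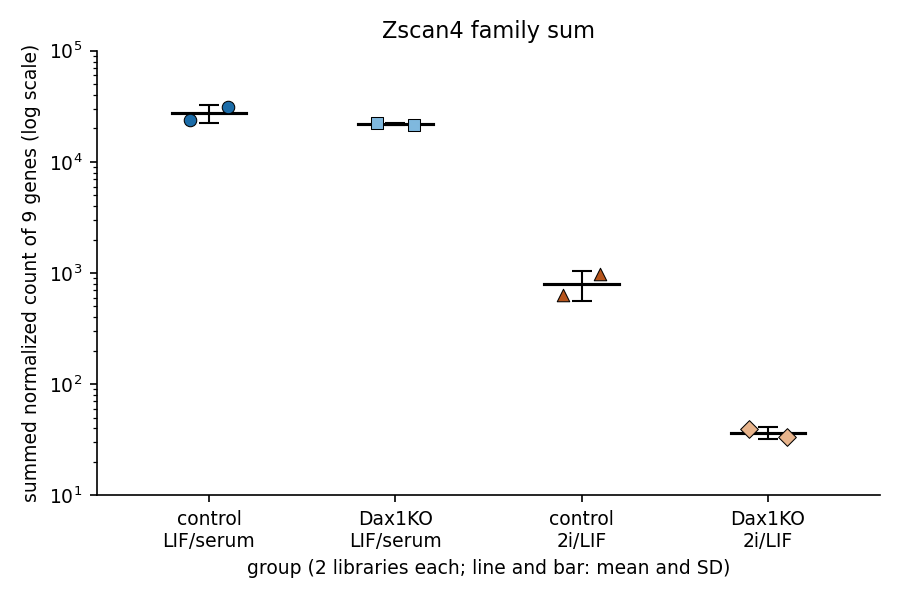
Summed normalized count of the 9 Zscan4 genes in each library (points; log axis), by group, with the mean (line) and SD (bar) of the 2 libraries. Both Dax1KO libraries in 2i/LIF lie at 33.2 and 39.9, the control libraries in 2i/LIF at 633 and 977, and the 4 libraries in LIF/serum between 21653 and 31081.

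Expressed as ratios, the family sum was 22.0-fold lower in Dax1KO than in control cells in 2i/LIF, a log2 ratio of -4.46 with an SD of 0.48. In LIF/serum it was 1.25-fold lower, a log2 ratio of -0.32 with an SD of 0.27. With each library left out in turn, the ratio in LIF/serum lay between -0.50 and -0.11. Control cells had a 34.1-fold lower sum in 2i/LIF than in LIF/serum, and Dax1KO cells a 603-fold lower sum. As CPM of the raw total, the LIF/serum sums were 626 and 811 in control and 631 and 599 in Dax1KO libraries, so without TMM scaling the genotypes overlapped there. The log2 ratio in LIF/serum was then -0.22, in the same direction.

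In 2i/LIF, all 9 members were lower in Dax1KO cells, and 5 of them had no count at all in either Dax1KO library. Zscan4c, the member most often studied in ESCs, had 89 and 160 counts in control libraries and 15 and 8 in Dax1KO libraries. Zscan4d, the copy described in the embryo, had 114 and 212 against 8 and 4. Zscan4f had 115 and 211 against 18 and 17. These 3 protein-coding genes kept counts in both Dax1KO libraries, at 11.1-fold, 27.9-fold and 9.56-fold lower mean normalized counts. Zscan4b, the fourth gene that RefSeq calls protein coding, had 34 and 18 counts against 0 and 0, which is at least 8.91-fold lower when a floor of 3 counts per library stands for the zeros.

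The members that RefSeq lists as pseudogenes showed the same low values. Zscan4a had 61 and 58 counts in control libraries and 0 and 0 in Dax1KO libraries in 2i/LIF, at least 20.4-fold lower. Zscan4-ps2 had 96 and 130 against 0 and 0, at least 38.7-fold lower. Zscan4-ps3 had 54 and 74 against 0 and 0, at least 21.9-fold lower. The control libraries of these 3 genes were all above 50 counts and the Dax1KO libraries were empty. Zscan4-ps1, the lowest member, had 12 and 24 counts against 0 and 0, at least 6.16-fold lower. Zscan4e had 56 and 90 against 0 and 5, which is 18.7-fold lower with the floor in place of the 0 and 15.0-fold lower without that library.

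Across all genes tested, 3.16% were called in this comparison by edgeR's quasi-likelihood test at an adjusted p of at most 0.05, 1.51% as higher and 1.65% as lower, and all 9 members were among the latter. Since members were chosen knowing these decreases, nothing is read from that count. It fell to 5 of 9 without the first and to 4 of 9 without the second Dax1KO library in 2i/LIF, where a single Dax1KO library remained. Both Dax1KO libraries lay below both control libraries for 9 of 9 members, and for 26.8% of all genes tested.

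**Figure D2:**
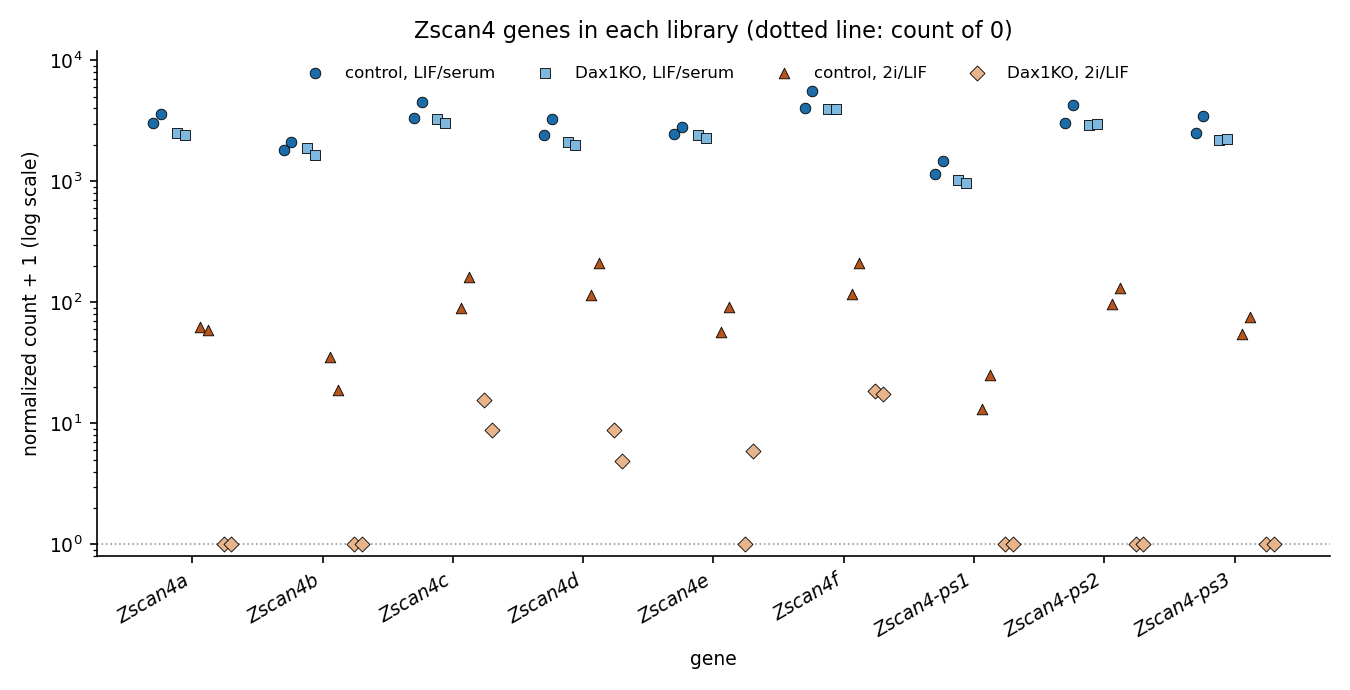
Normalized count plus 1 of each Zscan4 gene in every library (log axis; dotted line, a count of 0), coloured by group. For every gene the libraries in LIF/serum lie above the control libraries in 2i/LIF, and these above the Dax1KO libraries in 2i/LIF, of which 11 values are at 0.

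In LIF/serum, no Zscan4 gene passed the test between Dax1KO and control cells, although all 9 fitted values were below 0. Zscan4a had 3012 and 3616 normalized counts in control libraries and 2530 and 2415 in Dax1KO libraries. Its log2 fold change was -0.42 (SE 0.14, adjusted p = 0.0884, the quasi-likelihood test of edgeR, adjusted by Benjamini-Hochberg), and it was the 1 member with an unadjusted p under 0.05. The groups of Zscan4a did not overlap. Zscan4d, with the largest fitted difference, had 2430 and 3254 normalized counts in control and 2122 and 2004 in Dax1KO libraries, a log2 fold change of -0.46 (SE 0.27, adjusted p = 0.288, same test). Zscan4c had 3349 and 4523 against 3277 and 3050, a log2 fold change of -0.32 (SE 0.26, adjusted p = 0.452, same test). Zscan4f had 4019 and 5536 against 3987 and 3991, a log2 fold change of -0.26 (SE 0.25, adjusted p = 0.519, same test). For Zscan4c and Zscan4f the first control library was close to the Dax1KO libraries and the second stood above them.

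The other members were also close between the genotypes in LIF/serum. Zscan4b had 1828 and 2118 normalized counts in control and 1900 and 1660 in Dax1KO libraries and was the 1 member whose groups overlapped. Zscan4e had 2470 and 2813 against 2423 and 2299. Zscan4-ps1 ran from 972 to 1472 over the 4 libraries, Zscan4-ps2 from 2931 to 4263 and Zscan4-ps3 from 2215 to 3486. Over the 9 members the log2 fold changes lay between -0.46 and -0.15, with a median of -0.32 against 0.01 over all genes tested, and the adjusted p lay between 0.0884 and 0.750. For 8 of 9 members both Dax1KO libraries were below both control libraries, which also held for 27.3% of all genes tested. That count rests on TMM scaling. In raw counts Zscan4c had 3159 and 4241 in control against 3425 and 3128 in Dax1KO libraries, which overlap. Raw counts of Zscan4e, Zscan4f and Zscan4-ps2 overlapped as well. The members are near-identical copies that may share reads, so the 9 are not independent, and nothing is read from the count. With SEs of 0.14 to 0.28 and an adjusted p of at least 0.0884, a decrease of this size was not resolved, and the test does not show that the levels were equal. By comparison, 14.7% of all genes were called in LIF/serum, 8.87% as higher and 5.78% as lower, and the members called were 0 by edgeR and 0 by DESeq2.

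All 9 members were higher in replicate 2 than in replicate 1 of the control cells in LIF/serum, and the family sum by 1.30-fold. In control cells in 2i/LIF, 7 of 9 were higher in replicate 2, and the sum by 1.54-fold. The Dax1KO libraries differed by 1.03-fold in LIF/serum and by 1.20-fold in 2i/LIF. In both media the control libraries varied more than the Dax1KO libraries.

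**Figure D3:**
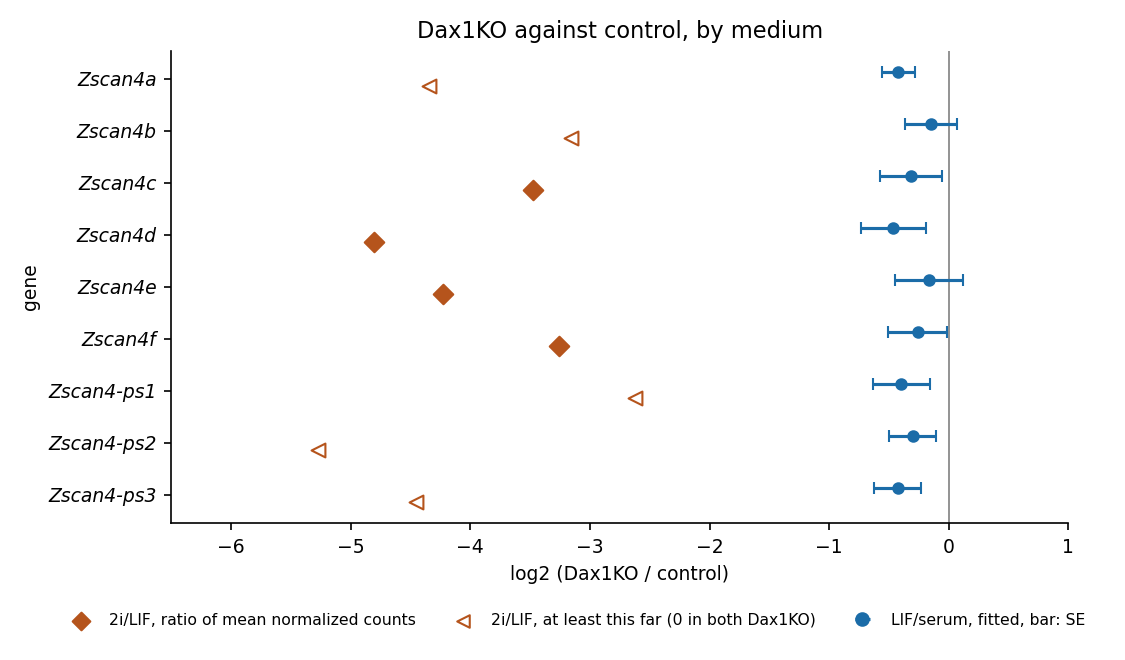
Log2 ratio of Dax1KO to control for each Zscan4 gene, in 2i/LIF from mean normalized counts (diamonds, with the floor for the empty library of Zscan4e; open arrowheads are lower bounds for genes at 0 in both Dax1KO libraries) and in LIF/serum from the edgeR fit (circles, bar: SE). The ratios and bounds in 2i/LIF lie well to the left of the values in LIF/serum, which run from -0.46 to -0.15.

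In control ESCs the medium separated every member. Per kilobase of transcript, which allows for length but not for reads that match several members, Zscan4f was the highest in LIF/serum at 2612 ± 586 normalized counts (SD, n = 2). It was followed by Zscan4c at 1729 ± 365, Zscan4-ps2 at 1606 ± 376, Zscan4e at 1514 ± 139, Zscan4a at 1454 ± 187, Zscan4-ps3 at 1321 ± 296, Zscan4d at 1251 ± 257 and Zscan4b at 1109 ± 115. Zscan4-ps1 was lowest at 650 ± 113. Neighbours from Zscan4c to Zscan4b did not differ beyond their spread, whereas Zscan4f and Zscan4-ps1 stood apart from their neighbours by more than 1 SD. These levels placed Zscan4f above 94.7% and Zscan4-ps1 above 79.5% of the genes tested. Zscan4f also had the lowest and Zscan4-ps1 the highest share of 100-base windows found in no other gene, 10.5% and 76.6%. The part of read assignment in the order of members, here and in 2i/LIF, was not tested.

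In 2i/LIF the order of control cells was led by Zscan4f, at 89.2 ± 37.0 normalized counts per kilobase, and Zscan4d, at 71.8 ± 30.4. Zscan4c followed at 54.8 ± 22.0, and Zscan4b and Zscan4-ps1 were lowest at 14.6 ± 6.39 and 8.94 ± 4.20. Zscan4f was then above 44.5% of the genes tested and Zscan4-ps1 above 14.6%. The 3 highest did not differ beyond their spread. The fold between media in control cells was smallest for Zscan4d, at 17.4-fold lower in 2i/LIF, and greatest for Zscan4b, at 75.7-fold, with Zscan4-ps1 at 72.7-fold and Zscan4a at 55.6-fold. In Dax1KO cells the members with counts were 234-fold (Zscan4f) to 605-fold lower in 2i/LIF, the latter being Zscan4e with the floor for its empty library and 483-fold without it, and the 5 members at 0 were at least 340-fold to at least 1015-fold lower. By edgeR's rule, 9 of 9 members were called lower in 2i/LIF in control cells, where 36.8% of all genes were called and 16.5% as lower. In Dax1KO cells 9 of 9 were called, where 28.9% of all genes were called and 13.7% as lower. The difference of the Dax1KO effects between media was called for 9 of 9 members, where 2.87% of all genes were called and 2.05% in this direction. These counts are descriptions and share libraries with the comparison that chose the members.

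The make-up of the family in control cells differed between the media. Zscan4c, Zscan4d and Zscan4f together held 41.1% and 42.8% of the Zscan4 counts in control libraries and 41.9% and 41.8% in Dax1KO libraries in LIF/serum. They held 50.4% (95% Wilson interval 46.5% to 54.3%) and 59.7% (56.6% to 62.7%) in control libraries in 2i/LIF. Both control libraries in 2i/LIF lay above the 4 libraries in LIF/serum. The 3 genes were grouped after their values were seen, as the members with counts in both Dax1KO libraries in 2i/LIF. Their share there, 41 of 41 and 29 of 34 counts, follows from that choice.

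**Figure D4:**
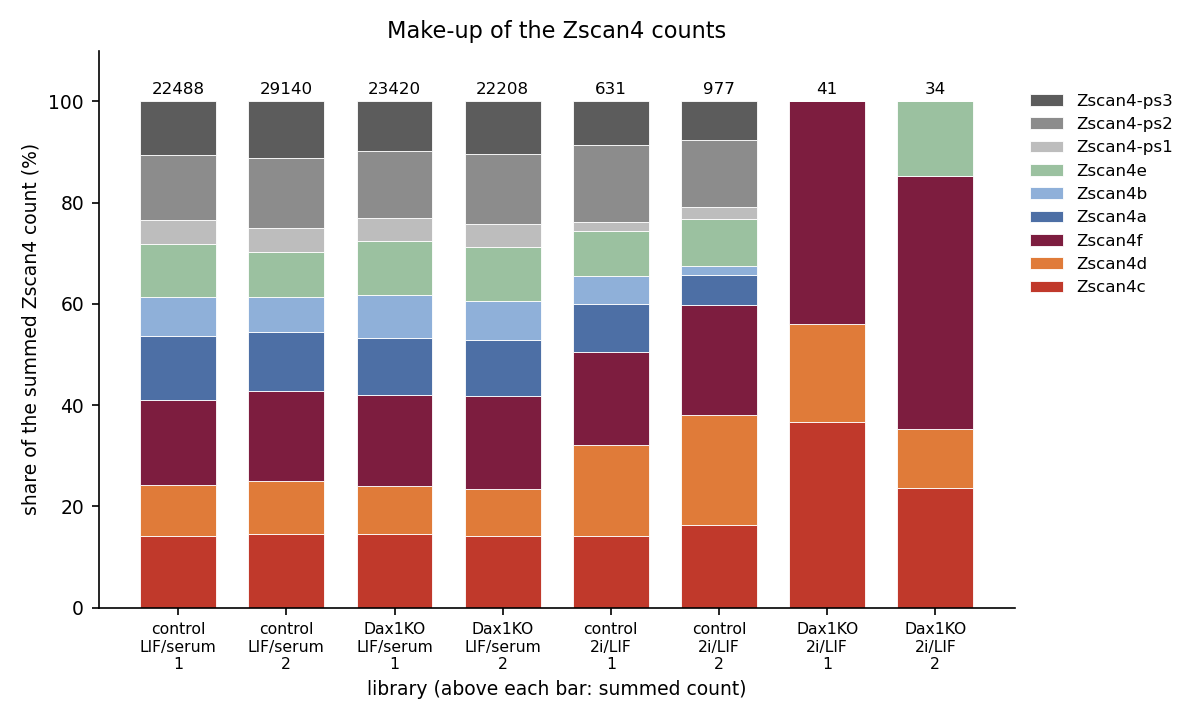
Share of each member in the summed Zscan4 count of every library (stacked bars to 100%), with the summed count above each bar. The 4 libraries in LIF/serum have nearly the same make-up, whereas the Dax1KO libraries in 2i/LIF, with 41 and 34 counts, hold Zscan4c, Zscan4d and Zscan4f and, in the second library, Zscan4e.

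Most of the difference in control cells was in Zscan4d, which held 18.1% and 21.7% of the family count in control libraries in 2i/LIF and between 9.25% and 10.5% in the 4 libraries in LIF/serum. Zscan4c held 14.1% and 16.4% in control libraries in 2i/LIF against 14.0% to 14.6% in LIF/serum, which overlap. Zscan4f held 18.2% and 21.6% in control libraries in 2i/LIF. In LIF/serum it held 16.9% and 17.8% in control libraries, without overlap, and 17.8% and 18.4% in Dax1KO libraries, the second of which overlapped. Zscan4b held 5.39% and 1.84% in control libraries in 2i/LIF and between 6.82% and 8.48% in LIF/serum. Zscan4a held 9.67% and 5.94% against 11.2% to 12.6%, and Zscan4-ps3 held 8.56% and 7.57% against 9.88% to 11.2%. The share of Zscan4e, 8.87% and 9.21% against 9.05% to 10.8%, overlapped. Zscan4-ps1 held 1.90% and 2.46% against 4.49% to 4.82%. The share of Zscan4-ps2 was between 12.8% and 15.2% in those 6 libraries and did not separate the media. The sum over Zscan4a, Zscan4d and Zscan4-ps1, the members with most of their 100-base windows in no other gene, a sum added after the data were seen, gave a log2 ratio of -5.36 between Dax1KO and control in 2i/LIF and -0.43 in LIF/serum.

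Regulators described as activators of Zscan4 or of the 2-cell-like state were not called between Dax1KO and control cells in 2i/LIF. None of the 7 tested passed there by edgeR or DESeq2, and 0 had an unadjusted p under 0.05 in edgeR, with log2 fold changes from -1.37 to -0.01 and a median of -0.24 against -0.01 over all genes. Dux (listed as Duxf3), which activates 2-cell genes, had 3 and 10 counts in control and 3 and 2 in Dax1KO libraries, close to the floor. Dppa2, which with Dppa4 acts upstream of Dux, had 2322 and 3462 against 3071 and 2812 counts, overlapping groups. In LIF/serum Dux had 51 and 68 against 77 and 47 counts. There 1 of 7 was called by edgeR, near the 14.7% of all genes called in LIF/serum, so nothing is read from the count. DESeq2 called 3 of 7 there, and 4 had an unadjusted p under 0.05 in edgeR. The gene called by edgeR was Trp53 (p53), which acts on Dux after DNA damage. Trp53 fell by 0.80 on the log2 scale (SE 0.11, adjusted p = 0.00505, edgeR's quasi-likelihood test).

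Of 17 regulators described as repressors, Dax1 included, Dax1 was the 1 called in 2i/LIF by edgeR. DESeq2 called 2 of 17 there, and 2 had an unadjusted p under 0.05 in edgeR. In LIF/serum 5 of 17 fell, where 5.78% of all genes were called lower. These were Dax1, whose fall was set by the knockout and is no finding here, and Rif1, Ncl, Usp7 and L3mbtl2. Separate fits for the media called 3 of 17 in LIF/serum. Ncl (nucleolin), which represses Dux together with LINE1 RNA, fell by 0.72 on the log2 scale (SE 0.10, adjusted p = 0.00587, edgeR's quasi-likelihood test). Rif1, a heterochromatin and replication timing factor, fell by 0.77 (SE 0.19, adjusted p = 0.0339, same test), and Usp7, a deubiquitinase, by 0.56 (SE 0.14, adjusted p = 0.0355, same test). The median log2 fold change over the list stood at -0.26 for LIF/serum and at -0.07 for 2i/LIF. The calls of Rif1 and Usp7 were lost without either Dax1KO library of either medium and without the first control library in LIF/serum, and that of Usp7 also without either control library in 2i/LIF. Their adjusted p reached 0.137 and 0.193, both without the second Dax1KO library in LIF/serum.

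Genes of the 2-cell-like state other than Zscan4 followed the same direction in 2i/LIF. The list was set with earlier results of these data known, so it is not independent evidence of the direction. Of 25 tested, 10 fell and 0 rose, where 1.65% of all genes were called lower and 1.51% higher. All 25 fitted values were below 0, with a median log2 fold change of -2.59. In a fit of 2i/LIF alone, 21 of them were tested and 4 called. The rest had passed the filter through LIF/serum, such as B020004J07Rik, with 0 and 19 counts in control and none in Dax1KO libraries in 2i/LIF. Genes such as Usp17la to Usp17le share a family name, so the 25 need not be independent. Gm4340 had 158 and 413 counts in control and 19 and 19 in Dax1KO libraries and fell by 3.94 on the log2 scale (SE 0.51, adjusted p = 0.0118, edgeR's quasi-likelihood test). Gm21761 had 49 and 140 against 1 and 10 counts (log2 fold change -4.11, SE 0.75, adjusted p = 0.0323, same test). Sp110, a nuclear body protein gene, had 38 and 154 against 5 and 12 (log2 fold change -3.51, SE 0.72, adjusted p = 0.0438, same test). In all 3 the second control library was the highest in 2i/LIF by a wide margin. Without that library the values were -3.07 for Gm4340, -3.15 for Gm21761 and -2.17 for Sp110 on the log2 scale. The farthest values over the libraries left out were -4.47 for Gm4340, without the first control library, and -6.43 for Gm21761 and -4.27 for Sp110, without the second Dax1KO library in 2i/LIF. Tdpoz4, a TD and POZ domain gene, had 20 and 38 against 0 and 0 counts (adjusted p = 0.0148, same test), and its fold was not estimated.

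In LIF/serum, 0 of the 25 were called by edgeR, where 3 had an unadjusted p under 0.05, against 1 called by DESeq2 and 2 in separate fits for the media. The list had a median log2 fold change of -0.26, 17 below 0 and 8 above. The summed normalized counts of the list were 2442 and 4581 in control and 906 and 1068 in Dax1KO libraries in 2i/LIF, against 13538 and 18313 and 11918 and 12063 in LIF/serum. In both media the second control library was the highest, as for Zscan4. When either Dax1KO library in 2i/LIF was left out, each of the 4 genes named lost its call, with an adjusted p up to 0.247, the value of Sp110 without the first. Gm21761 and Sp110 also lost it without the second control library there and without either Dax1KO library in LIF/serum, and Sp110 without either control library in LIF/serum. Over all lists without Dax1, 11 of 77 genes tested were called in 2i/LIF, 2 without the first and 1 without the second Dax1KO library there, 5 without the second control library, and 7 and 6 without the first and second Dax1KO libraries in LIF/serum. DESeq2 called 23 of them, edgeR without the filter on low counts 3 and separate fits for the media 4.

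**Figure D5:**
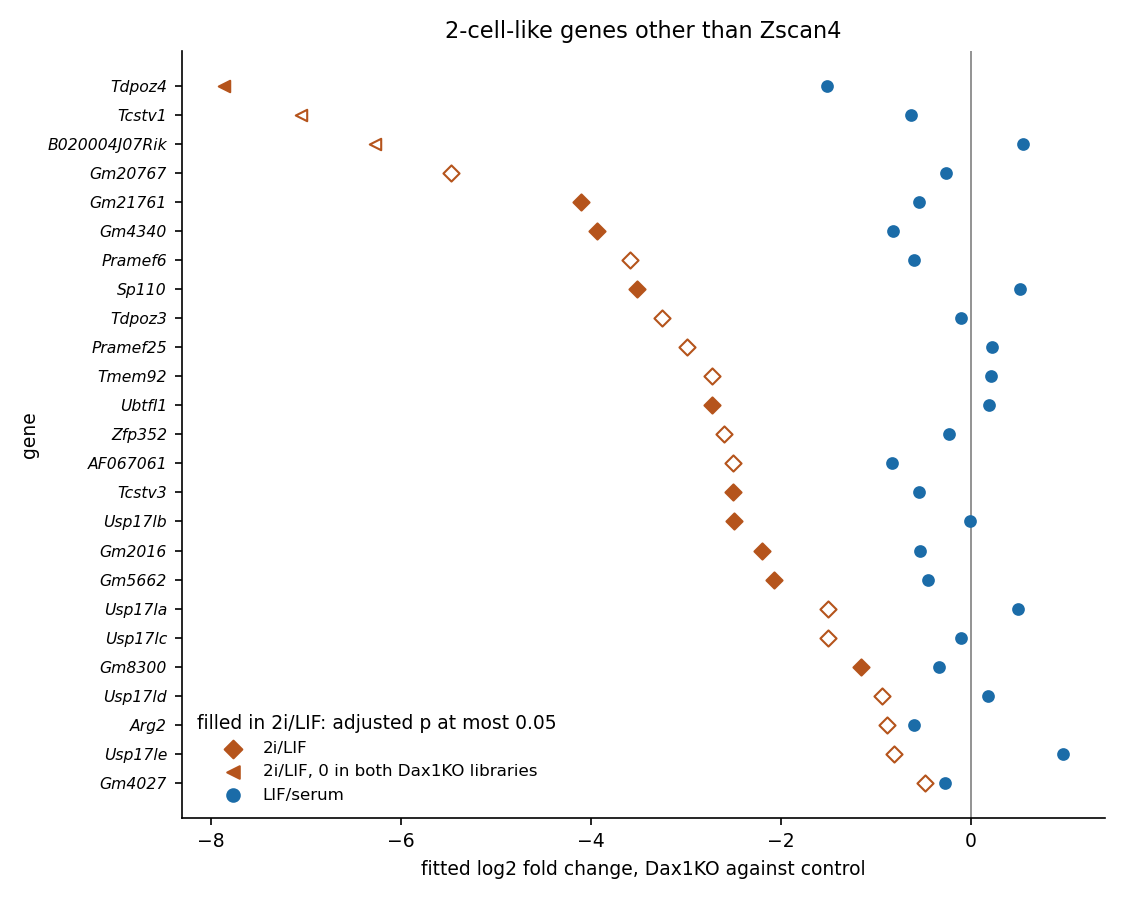
Fitted log2 fold change of Dax1KO against control for the 25 tested 2-cell-like genes other than Zscan4, in 2i/LIF (diamonds, or arrowheads for genes at 0 in both Dax1KO libraries, whose fitted value depends on the prior count; filled where the adjusted p is at most 0.05) and in LIF/serum (circles). All values in 2i/LIF lie below 0, with a median of -2.59, and those in LIF/serum scatter from -1.52 to 0.97.

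Of 10 genes of telomere recombination and DNA methylation that have been tied to Zscan4, 1 was called in 2i/LIF and 2 in LIF/serum, all higher, where 1.51% and 8.87% of all genes were called higher. The gene called in 2i/LIF was Tert, the catalytic subunit of telomerase, with 631 and 752 counts in control and 1246 and 1182 in Dax1KO libraries. Tert rose by 0.77 on the log2 scale (SE 0.15, adjusted p = 0.0419, edgeR's quasi-likelihood test), a call that was lost without either library of either genotype in 2i/LIF (adjusted p up to 0.220). In LIF/serum Stag3, a meiotic cohesin subunit, rose by 1.38 (SE 0.11, adjusted p = 0.00111, same test). Dmc1, a meiotic recombinase, rose by 0.75 (SE 0.19, adjusted p = 0.0388, same test). This call was lost whichever library was left out, with an adjusted p up to 0.164, without the first Dax1KO library in LIF/serum. Spo11, the meiotic double-strand break enzyme, had no counts. Uhrf1 and Dnmt1, whose proteins maintain DNA methylation, had log2 fold changes of 0.06 and -0.01 in 2i/LIF and of 0.16 and 0.13 in LIF/serum, none past the test.

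Other zinc finger genes with a SCAN domain were taken as relatives of the family outside the cluster. Of 19 tested, none was called in 2i/LIF by edgeR or DESeq2, where edgeR called 3.16% of all genes and 4 of the 19 had an unadjusted p under 0.05, with log2 fold changes from -0.94 to 0.90 and a median of -0.05. In LIF/serum 3 of 19 were called, near the 14.7% of all genes. Zscan2 rose by 2.58 on the log2 scale (SE 0.35, adjusted p = 0.00489, edgeR's quasi-likelihood test), from 15 and 22 to 111 and 134 counts. Zscan22 fell by 1.05 (SE 0.19, adjusted p = 0.0128, same test) and Zscan25 by 0.59 (SE 0.16, adjusted p = 0.0446, same test). The call of Zscan22 was lost without either Dax1KO library in LIF/serum and that of Zscan25 whichever library was left out. Without the second Dax1KO library in LIF/serum their adjusted p was 0.0838 and 0.193.

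Near the Zscan4 cluster, 14 other genes passed the filter on low counts, 4 inside the span and 5 on each side. In 2i/LIF 12 of them had counts and could be called, the other two, Gm45551 and Gm18204, having passed through LIF/serum. None was called there by edgeR or DESeq2, and 2 had an unadjusted p under 0.05 in edgeR. Gm45551, an unprocessed pseudogene inside the span and the 1 other gene with transcript sequence matching the members, had no count in the 4 libraries in 2i/LIF, 207 and 213 in control and 217 and 181 in Dax1KO libraries in LIF/serum. In LIF/serum 12 had counts, Gm6850 and Gm7789 having passed through 2i/LIF, and 2 were called, where 14.7% of all genes were. In separate fits for the media 9 neighbours were tested in LIF/serum and 0 called. Zfp419, 1731488 bases outside the span, had 13 and 8 counts in control and 0 and 0 in Dax1KO libraries (adjusted p = 0.0206, edgeR's quasi-likelihood test), and Gm17737 had 3 and 3 against 0 and 0 (adjusted p = 0.0293, same test), which is at the floor. Both genes passed the filter through 2i/LIF. Zfp419 had 20 and 28 counts in control and 23 and 12 in Dax1KO libraries there. Gm17737 had 172 and 170 in control and 98 and 76 in Dax1KO libraries. By their counts in LIF/serum neither would pass in that medium alone. The separate fit is therefore no check of these calls, and nothing is read from them. Neither was called without the first control library or without the second Dax1KO library in LIF/serum, and 1 was called without the first Dax1KO library there. Zik1, a zinc finger gene beside the cluster, had 641 and 513 counts in control and 734 and 666 in Dax1KO libraries in 2i/LIF.

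The genes whose log2 CPM followed the family sum most closely over the 8 libraries were BC080696 (Pearson r 0.998), Gm5039, Gm16478, Gm5662 and Itgb7 (0.997 each), out of 20740 genes compared. The 8 libraries fall into the 4 groups and share the separation of the media, so these values are a description. BC080696 had 3 and 4 against 0 and 0 counts in 2i/LIF and 12 to 13 counts in LIF/serum. Gm16478 had 32 and 67 against 0 and 0 in 2i/LIF and 854 to 979 in LIF/serum. Itgb7, an integrin beta subunit gene, had 349 and 379 against 192 and 173 in 2i/LIF and 774 to 929 in LIF/serum, a far smaller range than that of Zscan4. With a prior count of 0.5, 2 of the 5 genes stayed among the closest.

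Markers of other cell types moved in LIF/serum beside these values. The summed normalized count of 4 primitive endoderm markers was 2020 and 1544 in control and 5018 and 4311 in Dax1KO libraries, and Gata4, Gata6 and Sox17 were called higher and Sox7 was not. The sum of 4 trophectoderm markers was 1556 and 1665 against 2710 and 2280. Krt8 held most of it, with 1222 and 1283 against 2103 and 1546 normalized counts, and was not called. Eomes was called higher. Gata3, at 50.9 and 20.3 against 34.4 and 35.1 normalized counts, and Cdx2, at 7 to 24 counts and fitted lower, were not called. The sum of 3 fibroblast markers was 458 and 483 against 1498 and 1434, with Col1a1 and Thy1 called and Col1a2 not. Thy1 held most of that sum, with 413 and 409 against 1288 and 1250 normalized counts. The ESC markers summed to 121791 and 129331 against 118020 and 110708, with none called. The 4 markers of the 2-cell-like state summed to 787 and 992 in control and 1207 and 986 in Dax1KO libraries in LIF/serum, and to 149 and 477 against 132 and 154 in 2i/LIF, and the sums overlapped in both media. Usp17le held most of the sum in 2i/LIF, with 100.3 and 365 against 125 and 140 normalized counts. The other 3 markers did not overlap there. Tcstv3 was called lower, at 25.1 and 37.0 against 4.86 and 5.86 normalized counts (adjusted p = 0.0266, edgeR's quasi-likelihood test), and Zfp352, at 17.0 and 49.0 against 1.95 and 8.80, was not. Tcstv1 had 7 and 26 counts against 0 and 0 and was not called. In LIF/serum none of the 4 was called. In 2i/LIF the ESC markers summed to 140750 and 144952 in control and 114119 and 117338 in Dax1KO libraries, without overlap and with none called. The primitive endoderm markers there summed to 647 and 660 against 442 and 555, with none called. The trophectoderm markers summed to 1215 and 1818 against 2897 and 3166. Among them Krt8 was called higher, Gata3 had 132 and 116 against 37.9 and 53.8 normalized counts and was not called, and Cdx2 was at 0. The fibroblast markers summed to 1843 and 2327 against 1242 and 1208, of which Thy1, called lower, had 1726 and 2189 against 1091 and 1086. Col1a1 had 117 and 134 against 145 and 115 normalized counts and Col1a2 was under 7 in each library. The part of such cells in the Zscan4 values was not tested.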

How the data were processed

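The authors deposited counts per gene as whole numbers, 1 file for each of 8 mRNA libraries, without normalization. The submitters' processing notes name HISAT2 2.0.4, DESeq2 and mm10; the counting tool, the annotation and the handling of strand and of reads with several matches are not given in the sources used here. Libraries were grouped by their labels. Symbols came from GENCODE M21 (52403 of 52550 genes matched).

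The analysis used edgeR 4.0.16 under R 4.3.3, with filterByExpr (20749 genes), TMM, a mean for each of the 4 groups and a quasi-likelihood test, adjusted by Benjamini-Hochberg over all genes (threshold 0.05). The biological coefficient of variation was 20.9%, and the steps were checked on simulated data. Transcripts were compared with blastn 2.17.0 and mafft 7.526. A fold against libraries at 0 uses a floor of 3 counts per library. Wilson intervals have 95% confidence.

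The members and lists were chosen with earlier results of these data known. Named were all members, Dax1, the called genes with the largest fold in each list and medium (at most 4), called neighbours and the 5 genes most like the family sum. Other genes named give context and were chosen with their values known. Alternatives were DESeq2 1.42.0, RLE factors, no filter, a fit per medium, a block on the replicate number, CPM of raw totals, other member sums, a prior count of 0.5 and each library left out in turn.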

Additional observations from a re-analysis of the deposited data

Results flagged for a closer look

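For the 9 Zscan4 genes the difference of the Dax1KO values between the media is given as a description and not as a test, because it contains the 2i/LIF values by which they were chosen. All 9 were past edgeR's interaction term, where 2.87% of all genes tested were called, 2.05% in this direction, and nothing is read from that count. The difference, LIF/serum minus 2i/LIF on the log2 scale, was 2.99 for Zscan4f, 3.14 for Zscan4c, 4.31 for Zscan4d and 4.67 for Zscan4e. For the members at 0 in both Dax1KO libraries in 2i/LIF it depends on the prior count and is no bound, at 6.79 for Zscan4-ps1, 7.56 for Zscan4b, 8.48 for Zscan4a, 8.58 for Zscan4-ps3 and 9.52 for Zscan4-ps2. The count of 9 was 3 without the first and 4 without the second Dax1KO library in 2i/LIF, and 4 without either Dax1KO library in LIF/serum.

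Among the list genes named by the rule, which were picked by their calls in one medium, the same term passed for 5. It was 3.12 for Gm4340 and 6.35 for Tdpoz4, the latter at 0 in both Dax1KO libraries in 2i/LIF. It was -0.70 for Ncl, which fell in LIF/serum, and 1.30 for Stag3 and 2.27 for Zscan2, which rose in LIF/serum. Of the 5 genes most like the family sum, which were picked on these libraries, it passed for Gm5039 (1.88), Gm5662 (1.62), Itgb7 (1.13) and Gm16478 (8.62, at 0 in both Dax1KO libraries in 2i/LIF). Of the markers of other cell types, it passed for Gata4 (1.60), Gata6 (2.51) and Thy1 (2.47).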

How the results depend on the processing

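The Zscan4 calls in each medium comparison and in LIF/serum kept the same count under every alternative run. No direction changed among the 9 members in LIF/serum, Dax1 and the list genes named by the rule; the neighbours, the genes most like the family sum and single members in 2i/LIF were not run singly. With each library left out in turn, the members called ranged from 4 to 9 in 2i/LIF and from 3 to 9 for the difference between media, list genes from 1 to 11 in 2i/LIF and from 4 to 9 in LIF/serum, and neighbours from 0 to 2 in LIF/serum. Where a group kept 1 library, it was assumed to vary like the others. Without the filter on low counts, 3 members were called for the difference between media, 3 list genes in 2i/LIF, 5 list genes in LIF/serum and 1 neighbour in LIF/serum. In separate fits, 4 list genes were called in 2i/LIF and 0 neighbours in LIF/serum. Both of these settings called 6 members in 2i/LIF. DESeq2 called 23 list genes in 2i/LIF. The cause was not tested. The family ratio over Zscan4a, Zscan4d and Zscan4-ps1 was -5.36 between genotypes in 2i/LIF, -9.89 between media in Dax1KO cells and 4.93 for the difference, and over Zscan4a to Zscan4f it was -8.76 between media in Dax1KO cells.

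The titles give 2 replicate numbers per group. Deviations of same-numbered libraries correlated at 0.0796 in 2i/LIF and 0.108 in LIF/serum over 2 pairs each, and nothing in the labels ties the number to a shared culture or day. With the replicate block, 9 members were called in 2i/LIF and 0 in LIF/serum, and 12 and 11 list genes, and Tert lost its call (adjusted p = 0.0541, edgeR).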
